A study of Capra hircus and Bos taurus with 7 samples.

Results

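The comparison described here set vesicles from skimmed goat milk powder against vesicles from whole goat milk powder, in small RNA sequencing. Of the 7 samples of the series, 6 entered it: 3 from whole powder and 3 from skimmed powder, each lettered A, B and C. A single bovine powder sample was left out. All 6 samples were labelled goat (Capra hircus). The powders were dissolved in warm water, and extracellular vesicles, the membrane particles that cells release, were separated on a size exclusion column. The labels state neither a breed, a lactation stage nor a maker for the goat powders. Whether a letter marks its own pack, production lot or isolation is also not stated, so the p-values below measure only the spread between these samples, and that spread may be technical. Counts were scaled to each sample's total, so neither the number of vesicles nor the RNA per vesicle can be read from them. Powder is a processed and pooled product, and skimming cannot be told apart from any other difference in how the powders were made.

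Each sample was a table of the same 364 mature microRNAs (miRNAs), and the 126 with a mean of at least 100 counts-per-million (CPM) over the 6 samples are described here. CPM scales the reads of a miRNA by the total over all 364 miRNAs of its sample. The choice used the overall level and not the difference between powders. These 126 miRNAs held between 99.6% and 99.7% of the reads of every sample, and the samples held 6561887 to 11963849 reads. Names are those of cattle miRNAs, whereas the samples are goat. In every sample 123 of the 126 reached 100 reads. The others fell to 4 reads (miR-205, skimmed sample B) and 8 reads (miR-6119-5p, whole sample A) at their lowest, or 88 reads (miR-4286, skimmed sample C). The members nearest to the limit were miR-148c at 103 CPM and miR-4286 at 102 CPM, and the nearest miRNAs below it were miR-194b at 95.3 CPM and miR-222 at 87.2 CPM.

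A miRNA is a short RNA cut from a hairpin precursor and loaded into an Argonaute protein, which it guides to messenger RNAs. Target choice rests mainly on the seed, the bases near the 5′ end, and miRNAs with the same seed form a family with overlapping targets. Each hairpin has a 5p and a 3p arm, and commonly one arm is kept while the other is degraded. Milk vesicles come largely from the secretory epithelium of the udder, and let-7, miR-148a, miR-200, miR-30 and miR-21 are among the miRNAs commonly reported in them. When milk is skimmed the cream is removed, and with it the fat globules, which carry membrane and some cytoplasm of the secreting cell. Families were assembled here by name, since the bases themselves were not used, and an arm was read only from the suffix of a name.

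Some pairs of names had the same or nearly proportional counts in all 6 samples. miR-148c and miR-152 had exactly the same counts in all 6 samples, as did miR-3613a and miR-3613b, and miR-3578 and miR-382. The 126 miRNAs were thus 123 distinct series of counts. The log2 ratio of miR-26a to miR-26c stayed at 1.00 in every sample, that of miR-16a to miR-16b between 0.0002 and 0.038, that of miR-3600 to miR-22-3p between 0 and 0.015, and that of miR-148a to miR-148d between 0.13 and 0.21. Such pairs are not separate measurements of a difference between powders, and counts of miRNAs below include both names.

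At the level of single miRNAs few differences passed the adjusted threshold in edgeR. With 3 samples per powder, a lack of calls does not show that the powders are alike. In edgeR's quasi-likelihood test, which was run on all 209 miRNAs past a filter on low counts and adjusted over them by the Benjamini-Hochberg method, 1 of the 126 was higher in skimmed powder at an adjusted p of 0.05 and 0 were lower. Over the 209 tested miRNAs this was 0.478%, the same call. At an unadjusted p of 0.05, 12 members were higher and 7 lower, against 10.5% of all tested miRNAs. All 3 skimmed samples lay above all 3 whole samples for 16 members and below them for 15, and the background over tested miRNAs was 9.57% above and 10.5% below. The median log2 fold change of the members was 0.01, and over all tested miRNAs it was 0.03. Only 6 of the 126 members had a log2 fold change beyond 1 in either direction.

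**Figure D1:**
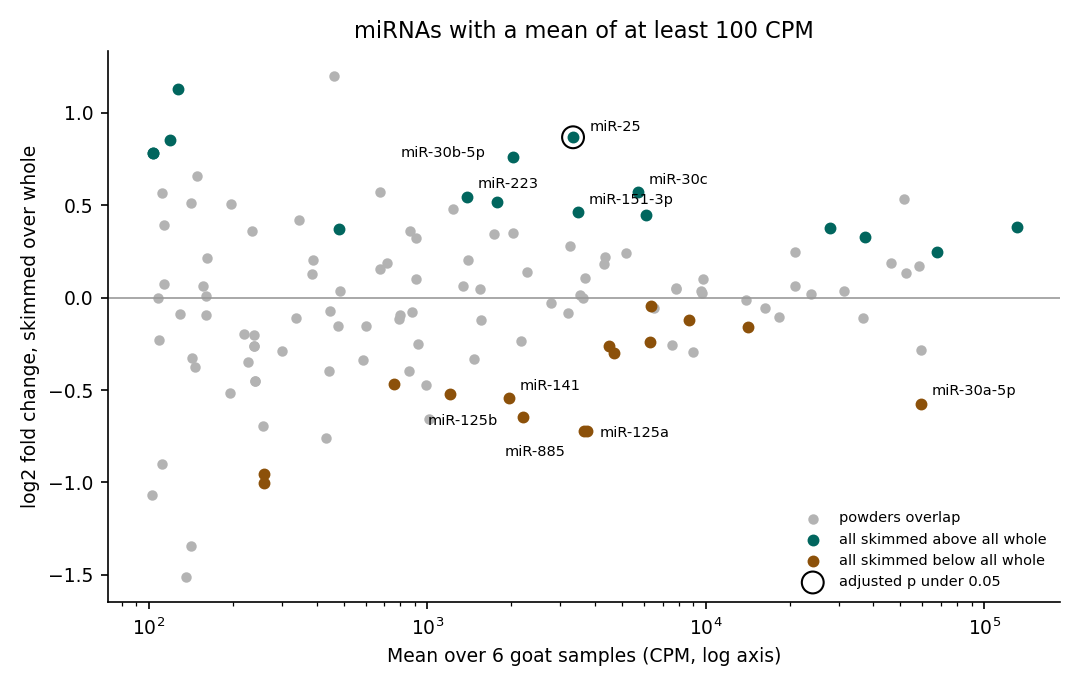
Log2 fold change of skimmed over whole powder (vertical axis) against the mean level in CPM (horizontal, log axis) for the 126 miRNAs, 1 point each. Green and brown points are miRNAs whose 3 skimmed samples lie all above (16) or all below (15) the 3 whole samples, and the black ring marks miR-25, the miRNA past the adjusted threshold.

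The miRNA past the threshold was miR-25, which belongs to a cluster with miR-93 and miR-106b and shares its seed with miR-92a. It measured 2715, 2433 and 2219 CPM in whole samples A, B and C, and 3557, 4600 and 4486 CPM in skimmed samples A, B and C. The groups did not overlap, and the lowest skimmed sample was A. The log2 fold change was 0.87 ± 0.13 (SE; adjusted p = 0.035, edgeR, n = 3 per group). Without skimmed sample A the adjusted p was also 0.035 in edgeR. It rose to 0.072 without whole A, 0.16 without whole B, 0.082 without whole C, 0.24 without skimmed B and 0.12 without skimmed C, while the log2 fold change stayed between 0.81 and 0.94. With samples scaled by library totals its edgeR adjusted p was 0.059.

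The other miRNAs named here have the lowest p-values in each direction and did not pass that threshold. miR-30b-5p, a member of the miR-30 family that is abundant in epithelia, measured 1455, 1519 and 1724 CPM in whole powder and 2557, 2789 and 2122 CPM in skimmed powder. The skimmed samples all lay above the whole samples, with a log2 fold change of 0.76 ± 0.15 (SE; edgeR adjusted p = 0.076). miR-30c of the same family measured 5042, 5254 and 4041 CPM against 7655, 6442 and 5767 CPM (log2 fold change 0.57, edgeR adjusted p = 0.12). Both kept the groups apart.

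miR-223, which is enriched in neutrophils and other myeloid cells, measured 1211, 1157 and 1154 CPM in whole powder and 1503, 1604 and 1722 CPM in skimmed powder. Its whole samples lay close together and below every skimmed sample, at a log2 fold change of 0.55 ± 0.14 (SE; edgeR adjusted p = 0.12). miR-151-3p measured 2996, 3117 and 2990 CPM against 4036, 4153 and 3548 CPM, again without overlap (log2 fold change 0.46, edgeR adjusted p = 0.12). Next in order of p, miR-143, known from smooth muscle and fibroblasts, was at 1487, 1552 and 1491 CPM against 1670, 2004 and 2441 CPM and did not overlap (log2 fold change 0.52, edgeR adjusted p = 0.12).

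In the other direction, miR-885 measured 4511, 5560 and 3880 CPM in whole powder and 2831, 2512 and 2547 CPM in skimmed powder. Its lowest whole sample lay well above the highest skimmed sample, at a log2 fold change of -0.72 ± 0.15 (SE; edgeR adjusted p = 0.076). miR-30a-5p, one of the most abundant miRNAs in these vesicles, measured 70371, 64429 and 83105 CPM against 39793, 46006 and 52253 CPM (log2 fold change -0.57 ± 0.15, edgeR adjusted p = 0.12). Thus 3 members of the miR-30 family were among the 10 miRNAs named by p-value, miR-30a-5p in the direction opposite to miR-30b-5p and miR-30c.

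The relatives miR-125a and miR-125b, both known as regulators of differentiation, were placed alike. miR-125a measured 4687, 5902 and 3797 CPM in whole powder and 3354, 2494 and 2271 CPM in skimmed powder (log2 fold change -0.72, edgeR adjusted p = 0.12). miR-125b measured 2558, 3516 and 2222 CPM against 1605, 1893 and 1455 CPM (log2 fold change -0.65, edgeR adjusted p = 0.12). Neither had any overlap between powders. miR-141, an epithelial miRNA that opposes the epithelial to mesenchymal transition, measured 2328, 2330 and 2501 CPM against 1198, 1658 and 1771 CPM (log2 fold change -0.54, edgeR adjusted p = 0.12).

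How many of these passed depended on the method. When the test was confined to the 126 miRNAs, 4 passed, or 3.17%: miR-25 and miR-30b-5p were higher (edgeR adjusted p = 0.011 and 0.029) and miR-30a-5p and miR-885 lower (0.029 each). DESeq2, whose own filter on mean counts left an adjusted p for 71 of the 209 miRNAs, passed 13, or 18.3%. Those 13 were the miRNAs named above apart from miR-143, joined by let-7a-5p, miR-200c and miR-375. let-7a-5p, the most abundant miRNA of all, measured 126716, 123770 and 102518 CPM in whole powder and 159274, 135468 and 135715 CPM in skimmed powder. Its samples did not overlap, and its log2 fold change was 0.38 (adjusted p = 0.38 in edgeR).

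Summed by seed, the 364 miRNAs gave 161 families past the filter, many of them a single miRNA, and 0 passed an adjusted p of 0.05 in edgeR (0% of 161). At an unadjusted p of 0.05 there were 5 higher and 7 lower families, or 7.45%, and DESeq2 passed 4, all lower (2.58% of the 155 with an adjusted p). A total of 48 members fell into 15 families with 2 or more members. Of these 15 families, 0 were higher and 3 lower at an unadjusted p of 0.05, and in 2 the skimmed samples all lay above and in 4 all below the whole samples, where all tested families gave 8.7% and 9.94%. The lowest adjusted p of all families belonged to miR-885, which stands alone (0.099, edgeR), followed among lower families by miR-296-3p and miR-381, both under 100 CPM (0.15 each, edgeR). These had 0 or 1 read in every skimmed sample and so entered the test only through whole powder, and they were 2 of the 4 families passed by DESeq2. The lowest in the higher direction were the single miRNAs miR-223, miR-143 and miR-151-3p described above.

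The let-7 and miR-98 family, repressors of growth genes that mark differentiated cells, was the largest. It took 27.5%, 26.7% and 23.4% of the reads of the whole samples and 34.3%, 29.8% and 28.2% of the skimmed samples. The groups were apart, with whole C the lowest and skimmed A the highest sample, and the log2 fold change of 0.33 ± 0.15 (SE) did not pass (adjusted p = 0.54, edgeR) and was 0.17 without skimmed A. The miR-30 family came next with 14.7%, 15.2% and 15.5% in whole powder and 12.3%, 12.9% and 12.8% in skimmed powder. These samples were tightly grouped within each powder and did not overlap, at a log2 fold change of -0.19 ± 0.11 (SE; adjusted p = 0.69, edgeR). With each sample left out in turn and the scaling recomputed, it ran from -0.288 (without whole A) to -0.192. Every such value lay beyond the -0.187 of all samples. Shares and CPM are relative to each sample's total, whereas edgeR's fold changes also use TMM, its scaling between samples. With samples scaled by library totals, the edgeR log2 fold change was 0.25 for the let-7 and miR-98 family and -0.26 for the miR-30 family.

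The miR-148 and miR-152 family, whose member miR-148a is a leading milk miRNA and targets DNA methyltransferase genes, took 8.66%, 8.28% and 12.2% against 8.34%, 10.4% and 11.96%. Here whole C and skimmed C were the high samples, and the powders overlapped. The miR-200b, miR-200c and miR-429 family, which holds cells in the epithelial state, took 6.46%, 6.86% and 6.78% against 7.06%, 7.60% and 6.88%. The skimmed samples lay just above the whole samples, skimmed C by a small margin (log2 fold change 0.17, adjusted p = 0.75, edgeR). The log2 fold change was 0.055 without skimmed B and 0.064 without whole A. Every fit with a sample left out gave a value below that of all samples, 0.156 at most.

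The next families were miR-26, miR-21 (its 5p arm), miR-375, miR-25 with miR-92, miR-146, miR-423 (its 5p arm), miR-15 with miR-16, and miR-23a. Together with those above they form the 12 largest as assembled by name. miR-22-3p and miR-3600, whose counts were nearly the same, were kept as separate families with a mean of 0.78% each. Summed, they would rank above miR-23a. miR-375, a regulator of secretion, took 2.39%, 2.65% and 2.51% of the reads in whole powder and 3.35%, 3.04% and 2.78% in skimmed powder, with no overlap and a log2 fold change of 0.36 ± 0.12 (SE; adjusted p = 0.27, edgeR), which was 0.21 without skimmed A and 0.23 without whole A. miR-23a took 1.44%, 1.59% and 1.60% against 1.34%, 1.20% and 1.35%, also without overlap (log2 fold change -0.18, adjusted p = 0.69, edgeR; -0.31 without whole A and -0.28 without skimmed A). In the remaining 6 of these families the powders overlapped, and for miR-146, miR-15 with miR-16 and miR-25 with miR-92 the sign of the difference turned under other settings.

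**Figure D2:**
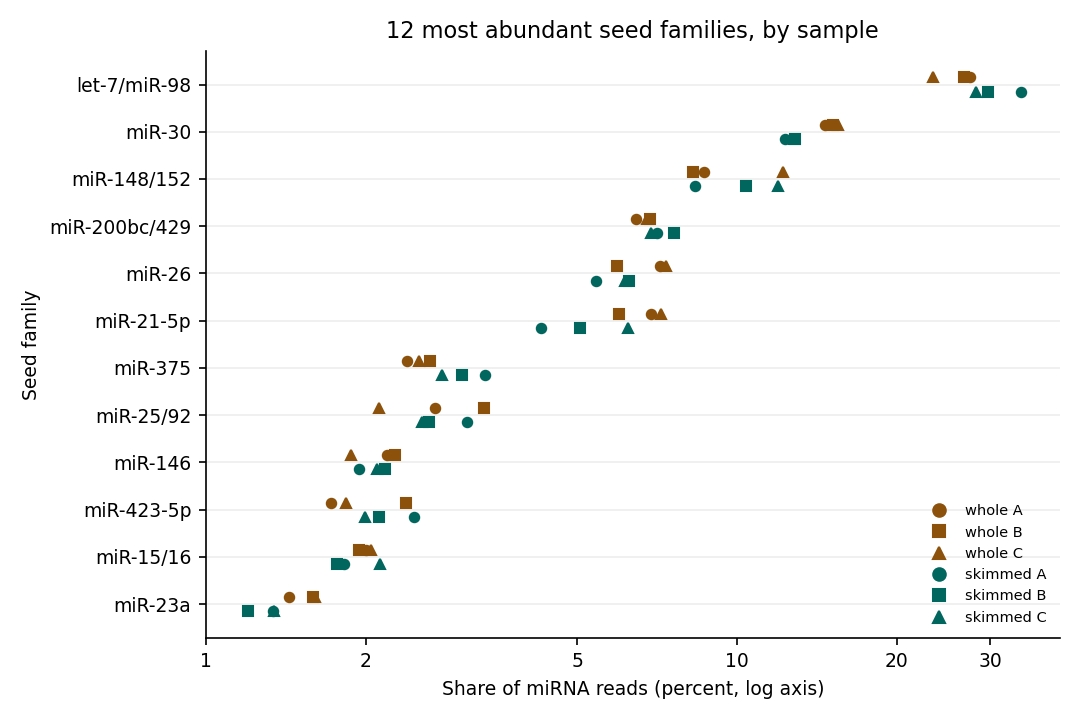
Share of miRNA reads (percent, log axis) taken by each of the 12 most abundant seed families, as assembled by name, in every sample. Whole powder is brown and skimmed powder green, with a marker shape for each letter. The let-7, miR-200 and miR-375 families have all 3 skimmed samples to the right of the whole samples, the miR-30 and miR-23a families all 3 to the left, and 7 families overlap.

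Among smaller families, miR-125 (miR-125a with miR-125b) had the largest difference of the 15 that hold several members. It took 0.724%, 0.942% and 0.602% of the reads in whole powder and 0.496%, 0.439% and 0.373% in skimmed powder. The groups did not overlap (log2 fold change -0.71 ± 0.18, SE; adjusted p = 0.15, edgeR). Without whole sample C it passed in edgeR (adjusted p = 0.046), as did miR-885 (adjusted p = 0.031, edgeR), and these were the 2 families that passed there. The miR-141 and miR-200a family took 0.994%, 0.866% and 0.960% against 0.616%, 0.741% and 0.784%. The log2 fold change was -0.34 (adjusted p = 0.27, edgeR), opposite in sign to the miR-200b, miR-200c and miR-429 family, whose seed differs by a base. The miR-99 and miR-100 family took 0.572%, 0.657% and 0.590% against 0.474%, 0.439% and 0.485%, again without overlap (log2 fold change -0.31, adjusted p = 0.26, edgeR).

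The composition of a family was then asked separately from its size, as the log2 ratio of a member to the rest of its family, tested with limma in the 15 families (40 ratios, a family of 2 giving 1 ratio). Of the 40 ratios, 1 passed an adjusted p of 0.05, or 2.5%, and it was miR-30b-5p within the miR-30 family. Unadjusted, 5 were higher and 6 lower at a p of 0.05 (27.5%). The skimmed samples lay entirely above the whole samples for 5 ratios (12.5%) and entirely below for 7 (17.5%). Ratios of 1 family depend on each other, as a larger share of 1 member lowers the ratios of the rest. The identical miR-148c and miR-152 also gave the same ratio under both names. These are therefore not counts of separate shifts.

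Within the miR-30 family, whose members share a seed and differ outside it, miR-30b-5p made up 0.992%, 1.00% and 1.11% of the family in whole powder and 2.07%, 2.17% and 1.66% in skimmed powder. The whole samples were nearly alike and all skimmed samples lay above them, at a log2 difference of 0.93 ± 0.13 (SE; limma adjusted p = 0.024). The limma adjusted p was 0.038 without whole B and 0.0086 without skimmed C. It was 0.14 without whole A, 0.093 without whole C, 0.13 without skimmed A and 0.10 without skimmed B, with the log2 difference between 0.86 and 1.05. It was 0.069 when ratios of rarer members, down to 10 CPM, were tested along with it.

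The large members of that family shifted too, but did not pass. miR-30a-5p made up 48.0%, 42.4% and 53.7% of the family in whole powder and 32.3%, 35.8% and 40.9% in skimmed powder, and miR-30d made up 37.6%, 40.7% and 34.2% against 49.9%, 47.9% and 43.7%. The order of these 2 leading members thus turned: miR-30a-5p exceeded miR-30d in all 3 whole samples and was below it in all 3 skimmed samples. miR-30c made up 3.44%, 3.46% and 2.61% against 6.21%, 5.01% and 4.51%. None of the 3 overlapped between powders, and the limma adjusted p was 0.12 for each. miR-30e-5p (3.43%, 3.53% and 3.53% against 2.29%, 3.49% and 3.79%) and miR-30f (6.54%, 8.90% and 4.91% against 7.27%, 5.72% and 5.45%) overlapped.

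edgeR's test of differential usage, which asks whether the members of a family change in unequal proportion, was lowest for the miR-30 family (adjusted p = 0.00055) and next for miR-25 with miR-92 (adjusted p = 0.020). In the other 13 families with several members it was 0.399 or higher, so 13.3% of the 15 passed. By single members, the same test passed 3 of 48, or 6.25%: miR-30b-5p, miR-30c and miR-25.

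**Figure D3:**
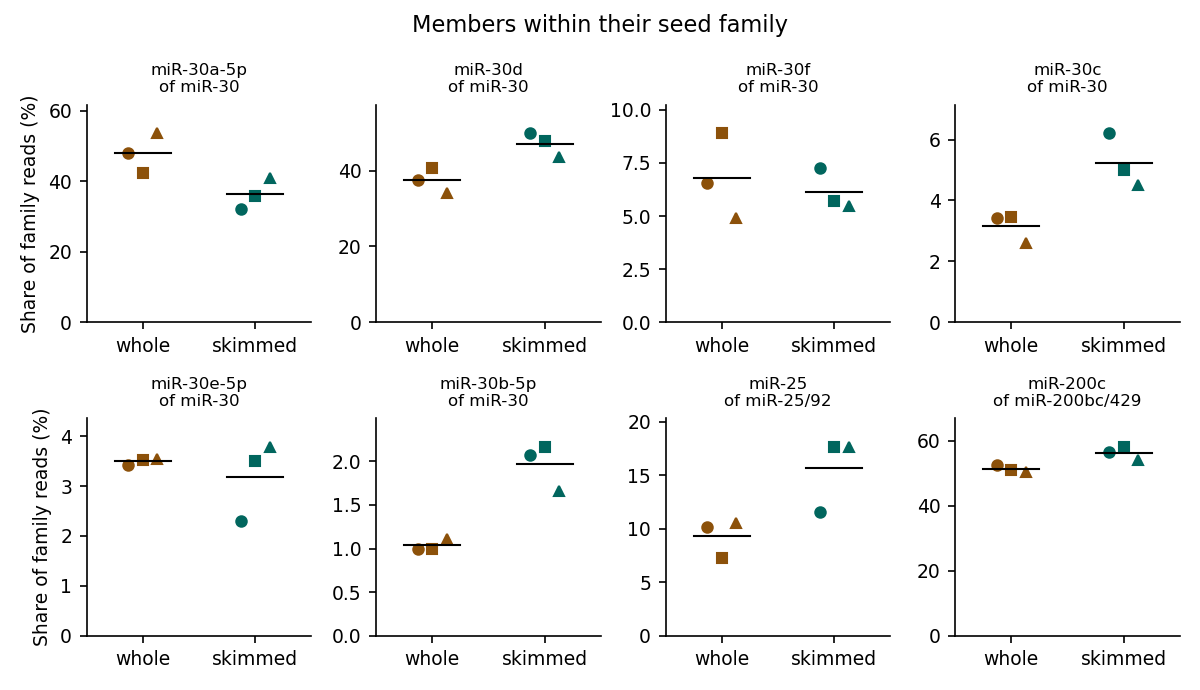
Share of its family's reads (percent, axis from 0, scales differ between panels) for the 6 miR-30 members and for miR-25 and miR-200c, in each whole (brown) and skimmed (green) sample, with bars at the group means. miR-30a-5p is lower and miR-30d, miR-30c and miR-30b-5p are higher in all 3 skimmed samples, while miR-30f and miR-30e-5p overlap.

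In the family of miR-25 and miR-92a, miR-25 made up 10.1%, 7.30% and 10.6% of the reads in whole powder and 11.6%, 17.6% and 17.7% in skimmed powder. Whole samples all lay below skimmed samples, though skimmed A was close to whole C. miR-92a itself measured 24098, 30897 and 18804 CPM against 27104, 21509 and 20919 CPM and overlapped, so the log2 ratio of miR-92a to miR-25 differed by -0.84 ± 0.27 (SE; limma adjusted p = 0.12).

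In the miR-200 family, miR-200c made up 52.6%, 51.0% and 50.3% against 56.6%, 58.2% and 54.0%, and miR-200b made up 46.3%, 47.9% and 48.2% against 42.4%, 40.8% and 45.0%. Both were apart between powders (log2 differences 0.29 and -0.28, limma adjusted p = 0.12 each). miR-148b was a small part of its family, 0.978%, 1.20% and 1.04% in whole powder and 0.837%, 0.856% and 0.726% in skimmed powder (log2 difference -0.41, limma adjusted p = 0.12). In the let-7 family the leading member let-7a-5p made up 46.1%, 46.3% and 43.8% against 46.4%, 45.5% and 48.2%, which overlapped. Among the 9 let-7 and miR-98 members, let-7g (6.26%, 5.89% and 7.89% against 4.70%, 5.01% and 5.44%) and let-7d (0.647%, 0.569% and 0.736% against 0.513%, 0.513% and 0.366%) were the 2 whose shares were apart, both lower in skimmed powder (limma adjusted p = 0.13 and 0.14). miR-125a made up 64.7%, 62.7% and 63.1% against 67.6%, 56.9% and 60.9% of its family, so the overlap of shares goes with a family whose 2 members were both lower in skimmed powder in CPM.

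An arm is named for 64 of the 364 miRNAs, and both arms of a hairpin are listed for 18. Both reached 100 CPM in 3 hairpins: miR-151, miR-423 and miR-6119. Their log2 ratio of 3p to 5p reads was tested with limma, and 1 of the 3 passed, or 33.3%. miR-151, encoded within the gene of focal adhesion kinase, had log2 ratios of -0.25, -0.37 and -0.18 in whole powder and 0.12, -0.0025 and 0.16 in skimmed powder. The 5p arm led in every whole sample, and in skimmed powder the arms were near balance. The log2 difference was 0.36 ± 0.08 (SE; limma adjusted p = 0.026 over the 3 hairpins, and exact two-sided permutation p = 0.1, the lowest value that 3 against 3 samples allow).

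This call depended on which hairpins were fitted together. With 9 hairpins, both arms at 10 CPM or more, the limma adjusted p for miR-151 was 0.69. In that fit 0 hairpins had an unadjusted p under 0.05, so more than the adjustment changed. With edgeR's usage test the adjusted p for miR-151 was 0.31. The limma adjusted p was 0.11 without whole A, 0.075 without whole B, 0.092 without skimmed A and 0.11 without skimmed C, and the log2 difference lay between 0.31 and 0.41 over all 6 samples left out in turn.

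miR-423 had log2 ratios of 3p to 5p of -0.84, -1.07 and -1.16 in whole powder and -1.48, -0.96 and -1.04 in skimmed powder. Its 5p arm led in all 6 samples and the powders overlapped (log2 difference -0.14 ± 0.18, SE; limma adjusted p = 0.65). miR-6119 had ratios of 6.20, -2.21 and -0.84 against 0.13, 0.35 and -0.87, with the first value resting on 8 reads of the 5p arm. Its powders overlapped, and the log2 difference was -1.18 ± 2.46 (SE), or 1.40 without whole sample A. In the other hairpins 1 arm or both were rare. let-7a, for example, had 831499 to 1478887 reads of the 5p arm and 148 to 1706 of the 3p arm, and miR-21 had 397401 to 861658 reads of its 5p arm and 0 to 205 of its 3p arm. Of all reads on hairpins with both arms listed, the 3p arms held 12.04%, 12.6% and 12.5% in whole powder and 9.68%, 12.8% and 12.04% in skimmed powder. These values overlapped (exact two-sided permutation p = 0.7). Most of these reads were on let-7a and miR-21, so the share depends on the level of those miRNAs as well as on arm balance.

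**Figure D4:**
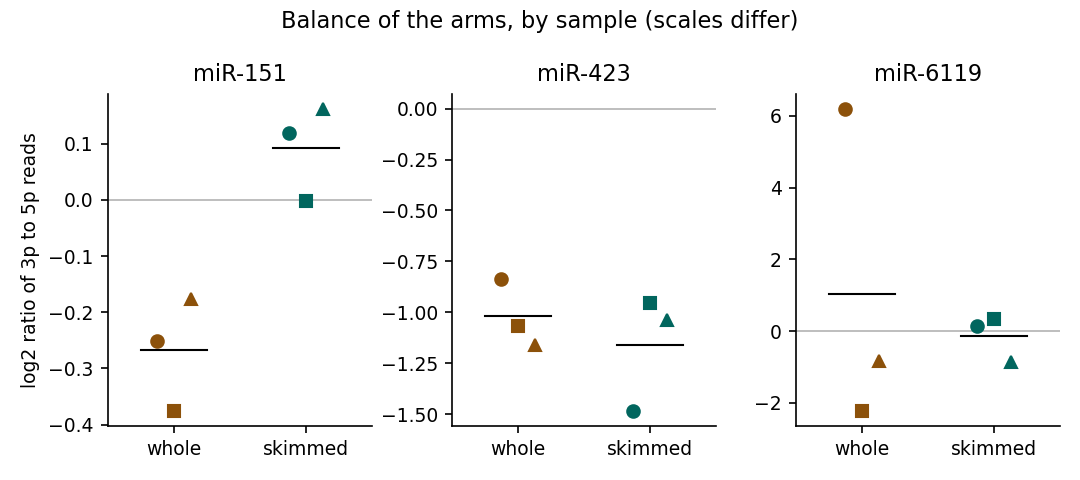
Log2 ratio of 3p to 5p reads in each whole (brown) and skimmed (green) sample for the 3 hairpins with both arms at 100 CPM or more, with bars at the group means and a grey line at equal arms. For miR-151 the 3 skimmed samples lie above the 3 whole samples, and for miR-423 and miR-6119 the powders overlap.

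Many miRNAs are encoded side by side and cut from 1 transcript, so neighbours were set next to each other. Neighbours were read from the goat RefSeq gene table (assembly ARS1.2), which lists 264 miRNA genes and in which 94 of the 126 members were found by name. With a gap of at most 10 kb there were 17 groups holding 42 members. In 10 of the 17 groups the log2 fold changes had both signs. Members apart between powders pointed in opposite directions in 3 groups, up only in 5, down only in 3, and in 6 groups all members overlapped. For reference, 24.6% of the 126 members and 20.1% of all tested miRNAs were apart between powders. How often miRNAs that are not neighbours differ in sign was not tested, so these counts are a description only. Some of these miRNAs, among them let-7a, miR-30c, miR-24 and miR-16, are encoded at more than 1 place, and their reads cannot be split between the places.

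The 3 groups of opposite direction were pairs. miR-200c (33936, 34984 and 34089 CPM in whole powder, 39944, 44203 and 37156 CPM in skimmed powder) lies beside miR-141, whose values above were lower in skimmed powder. let-7c (5764, 5601 and 4760 CPM against 8362, 5923 and 6182 CPM) lies beside miR-99a-5p (4929, 5387 and 4756 CPM against 4028, 3716 and 4039 CPM). miR-30c lies beside miR-30e-5p (5025, 5362 and 5469 CPM against 2823, 4495 and 4843 CPM). Each of these 6 miRNAs was apart between powders, 1 of a pair up and the other down, with edgeR adjusted p-values from 0.12 to 0.64.

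In other groups 1 member alone was apart between powders. miR-25 stood above zero while miR-93 (log2 fold change -0.07 ± 0.41, SE) and miR-106b (-0.38 ± 0.65, SE) overlapped. These have far fewer reads, with means of 446 and 146 CPM, and their intervals are wide. miR-30b-5p, apart between powders, lies beside miR-30d, which overlapped (0.17 ± 0.12, SE). miR-23a and miR-27a-3p of 1 cluster both lay lower in skimmed powder without overlap, at log2 fold changes of -0.16 and -0.52 (edgeR adjusted p = 0.70 and 0.38).

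**Figure D5:**
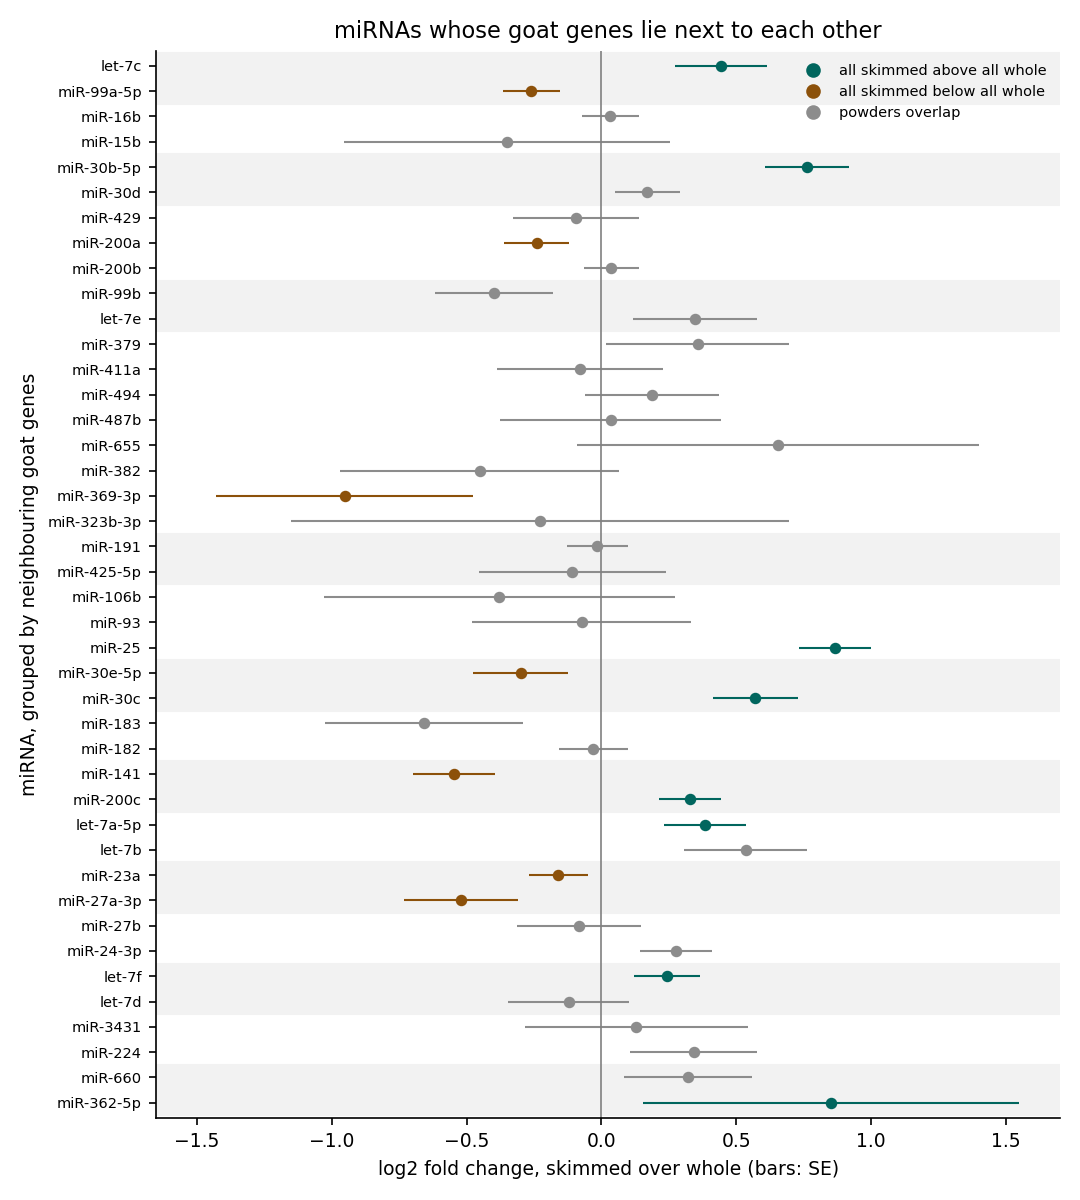
Log2 fold change of skimmed over whole powder with its SE (bars) for the 42 miRNAs in 17 groups of neighbouring goat genes, the groups marked by shading. Green points have all skimmed samples above all whole samples, brown points all below, and grey points overlap. let-7c with miR-99a-5p, miR-30c with miR-30e-5p, and miR-200c with miR-141 are the 3 groups holding both green and brown points.

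In 5 lists of miRNAs known from particular cells or functions, edgeR called 0 members, while DESeq2 called miR-141 (lower), miR-200c, miR-375 and miR-223 (higher), as given above. Of 8 mammary epithelial and milk vesicle miRNAs, 4 had a log2 fold change above 0 and 4 below, with a median of -0.03. Of the 8, 4 were apart between powders, where 20.1% of all tested miRNAs were. These lay in opposite directions, miR-200c and miR-375 higher and miR-200a and miR-141 lower in skimmed powder. Their summed share was 14.4% to 16.7% of reads in whole powder and 15.4% to 16.8% in skimmed powder. Of the 8, miR-205 was the scarce one, with 775, 630 and 3202 reads against 1505, 4 and 477. The 3 most abundant, miR-148a, miR-200c and miR-200b, had log2 fold changes of 0.14, 0.33 and 0.04. Of 7 tested leukocyte miRNAs, 5 were above 0 and 2 below (median 0.06), and they summed to 2.43% to 2.97% in whole powder and 2.68% to 2.86% in skimmed powder. Most of that sum was miR-146b (log2 fold change 0.06), with miR-342 at 0.01 and miR-155 at 0.20. The 2 below 0 were miR-142-5p (-0.20) and the rare lymphocyte miRNA miR-150, which had 117, 74 and 187 reads in whole powder and 0, 1 and 0 in skimmed powder (edgeR adjusted p = 0.12). With a mean of 6.8 CPM and at most 1 read in a skimmed sample, miR-150 entered the test only through whole powder. The myeloid miR-223 and the lymphoid miR-150 lay on opposite sides, but 1 miRNA each gives no contrast of cell types. The part of leukocyte RNA in either was not tested.

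Of the 3 erythroid miRNAs looked for, miR-486 was the 1 with an entry, at 0.0024% to 0.0073% of reads in whole powder and 0.0016% to 0.0039% in skimmed powder. Stromal and endothelial miRNAs summed to 0.149% to 0.165% against 0.169% to 0.246%, nearly all of it miR-143. miR-145, which is encoded beside miR-143 in other mammals, had 0, 1029 and 3 reads against 3, 390 and 129, and miR-126-3p had 0 reads in all whole samples and 188, 361 and 0 in skimmed samples. Of 10 tested miRNAs with roles in lipid metabolism, 2 were above 0 and 8 below, with a median of -0.27, against 0.03 over all tested miRNAs. Of these 10, 2 were apart between powders, where 20.1% of all tested miRNAs were. Some of the 10 are relatives (miR-27 and miR-29), and the list was chosen with earlier results of these data known. Their summed share was 7.58% to 9.07% in whole powder and 5.51% to 7.59% in skimmed powder. It followed miR-21-5p, at 68856, 59857 and 72022 CPM against 42799, 50688 and 62231 CPM, where skimmed C lay above whole B (log2 fold change -0.28, edgeR adjusted p = 0.57). The next, miR-103 and miR-27b, had log2 fold changes of -0.26 and -0.08.

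The spread within a powder sets which differences can be seen. The median SD of log2 CPM over the members was 0.27 in whole and 0.28 in skimmed powder. It depended on the level: the 64 members of 1000 CPM or more had median SDs of 0.15 and 0.19, the 26 between 300 and 1000 CPM had 0.30 and 0.31, and the 36 below 300 CPM had 0.57 and 0.67. The typical SE of a difference (median, log2 scale) went from 0.15 in the highest of these classes to 0.73 in the lowest. Below 300 CPM, differences such as those of miR-127 (116, 106 and 29.3 CPM against 136, 246 and 132 CPM, log2 fold change 1.13 ± 0.79, SE) and miR-362-5p (88.2, 106 and 72.1 CPM against 204, 116 and 127 CPM, 0.85 ± 0.70, SE) were apart between powders and yet within about 1.5 SE of 0. Among members between 300 and 1000 CPM, miR-339a measured 208, 481 and 194 CPM against 734, 480 and 663 CPM. Its whole sample B and skimmed sample B nearly coincided, and the log2 fold change of 1.20 ± 0.41 (SE) did not pass (adjusted p = 0.23, edgeR).

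Values of the whole profile overlapped between powders. The 10 leading miRNAs held 59.6%, 57.3% and 60.6% of the reads in whole powder and 60.5%, 60.7% and 61.0% in skimmed powder (exact two-sided permutation p = 0.2). The number of miRNAs at 100 CPM or more was 124, 128 and 125 against 127, 129 and 126 (exact two-sided permutation p = 0.4). With 3 against 3 samples neither test could have reached 0.05.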

How the data were processed

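Small RNA libraries of vesicles from goat milk powder were compared, 3 whole against 3 skimmed, grouped by title. Per the labels, libraries were size-selected on acrylamide gel and read as single ends of 50 bases. The deposited tables hold estimated counts per cattle-named miRNA, many of them fractions, and were taken as not normalized. Not given in the sources used here are the aligner, the counter, the miRNA reference and the build, nor how goat reads differing from cattle sequences were treated. The members and lists were chosen with earlier results of these data known.

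CPM was computed over all 364 miRNAs of a sample. Estimated counts were rounded and tested with edgeR 4.0.16 (default filter, TMM scaling, quasi-likelihood, Benjamini-Hochberg adjustment at 0.05) in R 4.3.3, for miRNAs and for family sums over all miRNAs. Member and arm ratios (pseudocount 0.5) were tested with limma 3.58.1. DESeq2 1.42.0, limma-voom, other scalings and filters, a block on the letter and samples left out in turn were alternatives. Families of shared seed (bases 2 to 8) were to be built from sequence, but no miRNA sequences were used. They were assembled by name instead (93 miRNAs in 30 families, the rest alone), and family results depend on that. Checks by GC content, length or a shorter seed were therefore not run, and no sequence is shown. No coordinates are given, since the build of the counts is unknown.

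Named are the 12 largest families, the calls, and the 5 miRNAs (members of 100 CPM or more) and 3 families of lowest p in each direction, the 5 lowest p among member ratios, the arm pairs, the 3 most abundant of each list and the miRNAs nearest 100 CPM. Others were chosen after their values were seen. Samples of a powder differed beyond sampling noise, so none was a copy. The fits were tested on simulated data. Reads amplified by PCR and lacking molecular identifiers do not each stand for a molecule, so depth speaks to counting error only.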

Additional observations from a re-analysis of the deposited data

How the results depend on the processing

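The number of miRNA calls was 1 as reported and with limma-voom, 0 under DESeq2's size factors in edgeR, library totals or upper-quartile scaling, 2 with no filter (miR-25 and miR-885), 4 in the miRNAs of 100 CPM or more, 13 with the DESeq2 Wald test, and 0 to 1 with a sample left out. The lowest edgeR adjusted p was then 0.072 to 0.24 in the 5 fits with no call, and 22 miRNAs had an unadjusted p under 0.05 in all samples. Family calls were 0 as reported, 4 with DESeq2, 2 with no filter and 0 to 2 with a sample left out (2 without whole sample C). Calls of a member ratio were 1 as reported, 3 with edgeR's usage test, 0 with members down to 10 CPM and 0 to 3 with a sample left out (3 without whole sample B, miR-148c and miR-152 joining miR-30b-5p). Calls of an arm ratio were 1, but 0 with the usage test, 0 with arms down to 10 CPM and 0 to 1 with a sample left out. Whether the letters pair the samples could not be decided, as deviations from a mean of 3 samples depend on each other. Deviations of the same-lettered samples correlated at -0.09 (A), 0.08 (B) and 0.37 (C). The value for C was the highest of any whole and skimmed sample, while whole A correlated best with skimmed B and whole B with skimmed A. With the letter as a replicate block there were 0 miRNA calls, 0 family calls, 0 calls of a member ratio and 1 of an arm ratio. Of 513 values of 39 named results, 455 kept direction and side of the threshold, 19 gained and 21 lost the call, and 18 turned. All 21 losses fell on the called results, which were miR-25, the miR-30b-5p ratio and the arms of miR-151. The other named results had no call to lose, so the 455 do not speak for the stability of the calls. Of those that turned, miR-146 (0.04) was -0.028 by totals, -0.0097 by upper quartile and -0.063 to 0.031 with samples left out. miR-15 with miR-16 was 0.040 in families of 100 CPM or more, 0.024 with no filter and 0.073 in sums of miRNAs of 100 CPM or more, a setting added after seeing the data. With samples left out miR-148 with miR-152 ranged from -0.043 to 0.32, miR-25 with miR-92 from -0.080 to 0.20, the arms of miR-423 from -0.24 to 0.024 and of miR-6119 from -2.81 to 1.40 (0.51 with the usage test), and the 3p share differed by -0.87 percentage points, or from -1.50 to 0.042 with samples left out, the last without skimmed sample A. The cause was not tested. Upper-quartile scaling moved the median log2 fold change of all tested miRNAs from 0.03 to -0.11, a shift relative to which its values should be read. Precision is limited below 300 CPM, where the median SE was 0.73 on the log2 scale.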

Other observations

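Several miRNAs of different families kept a near-fixed ratio across both powders. Of the 7875 pairs among the 126 miRNAs, 29 had a log2 ratio whose SD over the 6 samples was under 0.1. In 24 of those pairs the 2 names had been placed in different families here. Of the 24, 21 remain without the pairs that differ by an SD under 0.01, which are miR-3613a with miR-3613b, miR-3578 with miR-382 and miR-3600 with miR-22-3p. The 21 still pair miR-182 with both miR-16a and miR-16b, and miR-186 with both miR-26a and miR-26c. As those names had nearly proportional counts, the 21 are not all separate pairs. The log2 ratio of miR-375 to miR-7 lay between 5.78 and 5.90 in all samples (SD 0.054), although each of them lay higher in all skimmed samples than in all whole samples. Both are known from hormone-secreting cells. The log2 ratio of miR-200c to miR-151-3p lay between 3.31 and 3.51 (SD 0.080), again with both higher in skimmed powder, and that of miR-30d to miR-181a between 3.65 and 3.82 (SD 0.064). In the other direction, miR-23a and miR-99a-5p, both lower in all skimmed samples, kept a log2 ratio of 1.54 to 1.75 (SD 0.093). These pairs were chosen after their values were seen, among many pairs of abundant miRNAs with little spread, so no test is given.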
